A study of Mus musculus with 10 samples.

Results

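Transcript levels of the adrenergic receptors, the cell surface receptors for noradrenaline and adrenaline, were compared between young and old aortae. The 8 genes were taken by symbol: the alpha-1 receptors *Adra1a*, *Adra1b* and *Adra1d*, the alpha-2 receptors *Adra2a*, *Adra2b* and *Adra2c*, and the beta receptors *Adrb1* and *Adrb3*. They are 8 of 55453 gene symbols in the table, of which 28011 had a count and 14614 had enough counts to be tested. Of the 8 receptor genes, 7 were tested and *Adra2b* fell below the low-count filter. The remaining mouse gene of the family was not analysed here.

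Each of 10 libraries came from the aorta of 1 male C57BL/6 mouse, for which the labels name no transgene or treatment, 5 of them young (14.5 weeks) and 5 old (92.5 weeks). Both groups were killed at the same time, and the fat around the vessel was removed before RNA was extracted. Because whole aortae of males only were used, fewer cells of a type and less RNA per cell cannot be told apart in any level given here.

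Noradrenaline reaches the outer vessel wall from sympathetic nerve endings, and adrenaline reaches it with the blood. Alpha-1 receptors couple to the Gq family, which activates phospholipase C and raises calcium, so that smooth muscle contracts. Alpha-2 receptors couple to the Gi family and lower cyclic AMP, and on sympathetic nerve endings they restrain further release of noradrenaline. Beta receptors couple to Gs, which activates adenylyl cyclase and raises cyclic AMP, a relaxing signal in vascular smooth muscle, a stimulating one in the heart and a trigger of fat breakdown in adipocytes. *Adra1d* is known as the main contractile alpha-1 receptor of the mouse aorta, *Adrb1* as the main beta receptor of the heart, and *Adrb3* as the receptor of white and brown fat.

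None of the 7 tested receptor genes passed an adjusted p of 0.05 between old and young aortae in edgeR's quasi-likelihood test with Benjamini-Hochberg adjustment over all tested genes. In that test 11.5% of all tested genes were called, 6.48% higher and 4.99% lower in old aortae. The receptors nearest to a call were *Adra1b*, whose mean in old aortae was 0.715 times that in young aortae (adjusted p = 0.0589 by edgeR), and *Adra1d*, at 0.670 times (adjusted p = 0.133 by edgeR). At an unadjusted p below 0.05, 2 of the 7 passed, *Adra1b* and *Adra1d*, beside 26.7% of all tested genes. DESeq2, the tool the study used, called the same 2 receptors lower in old aortae, with 13.6% of its tested genes called, and limma-voom called 0. The fold change was below 0 for 5 of the 7 receptors and the median was -0.48 on the log2 scale, beside a median of 0.0034 and 49.2% below 0 over all tested genes. Levels of the 5 young and 5 old aortae did not overlap for 1 of the 7, *Adra1b*, and for 9.92% of all tested genes.

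**Figure D1:**
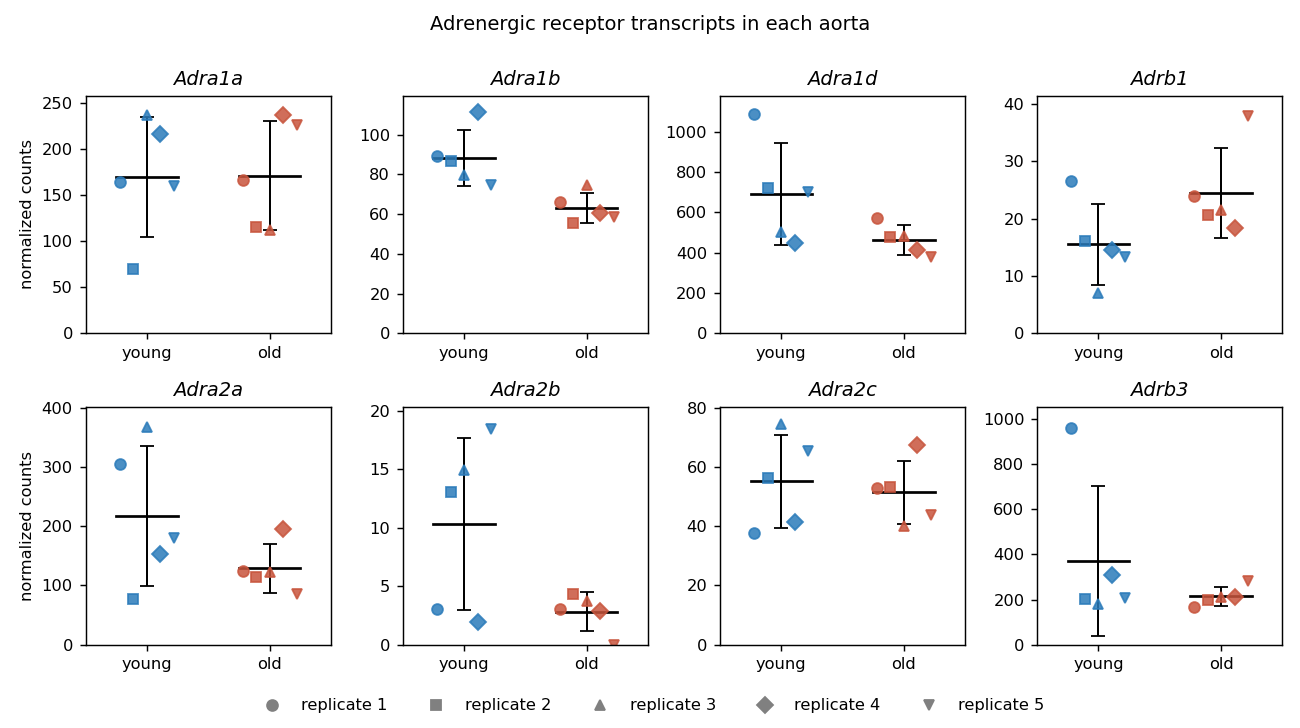
Normalized counts of the 8 receptor genes in each aorta, with young in blue and old in red, 1 symbol shape per replicate number, and black lines for the mean and SD of 5 mice. Every vertical axis starts at 0. The *Adra1b* points of young and old aortae separate narrowly, and the first young aorta stands alone for *Adrb3* at 959.9 normalized counts.

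Promoter sequences of 5 of the 8 receptor genes were found in RefSeq (GRCm38.p6), in 6 windows that run from 250 bases before to 50 bases after an annotated transcription start. The windows of *Adra1b* are shown because this receptor was nearest to a call and has a pair of annotated starts that a count per gene adds together, and the window of *Adrb1* because it was the one tested receptor besides *Adra1a* with a fold change above 0. Sequences are printed 5′ to 3′ on the gene's strand, with capitals for matches to GGGCGG, the GC box, on either strand. The *Adra1b* windows lie on the minus strand at chr11:43836440-43836739 (inner start) and chr11:43901188-43901487 (outer start), and the *Adrb1* window on the plus strand at chr19:56721867-56722166.
Adra1b inner start: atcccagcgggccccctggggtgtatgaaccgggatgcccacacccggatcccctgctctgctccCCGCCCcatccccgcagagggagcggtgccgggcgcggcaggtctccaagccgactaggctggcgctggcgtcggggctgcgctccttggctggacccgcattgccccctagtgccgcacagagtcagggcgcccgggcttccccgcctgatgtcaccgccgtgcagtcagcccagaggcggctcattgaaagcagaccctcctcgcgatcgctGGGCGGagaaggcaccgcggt
Adra1b outer start: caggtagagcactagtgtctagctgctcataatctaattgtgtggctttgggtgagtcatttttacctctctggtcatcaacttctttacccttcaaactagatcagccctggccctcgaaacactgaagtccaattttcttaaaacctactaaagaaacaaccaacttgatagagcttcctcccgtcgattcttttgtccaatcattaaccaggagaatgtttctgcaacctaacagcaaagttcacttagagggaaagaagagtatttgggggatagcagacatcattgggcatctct
Adrb1: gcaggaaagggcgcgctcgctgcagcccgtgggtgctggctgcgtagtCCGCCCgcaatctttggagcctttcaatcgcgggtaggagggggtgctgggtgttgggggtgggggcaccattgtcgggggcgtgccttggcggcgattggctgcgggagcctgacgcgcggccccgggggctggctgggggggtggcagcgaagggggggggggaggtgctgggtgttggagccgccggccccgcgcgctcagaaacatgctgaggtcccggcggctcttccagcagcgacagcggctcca

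The inner *Adra1b* window was rich in G and C, at 71.3% with 28 CpG dinucleotides, and held GGGCGG matches that begin at -185 and 29 from the start. The outer window was at 42.3% with 3 CpG and held none of the motifs searched. The *Adrb1* window was at 72.3% with 28 CpG and held a GGGCGG match at -202. Over all 32851 RefSeq windows of that length the median was 52.7% G and C with 7 CpG, and 35.7% held GGGCGG. The other motifs searched, on both strands and with overlapping matches allowed, were CACGTG (an E-box bound by clock factors, in 7.15% of all windows), TGACGTCA (the cyclic AMP response element, 1.79%), TATAAA (13.6%) and the CArG box of serum response factor (1.63%). A CACGTG lay in the *Adra2a* window at -80 and in the *Adra2c* window at -152, and the *Adra2a* window also held TATAAA at -29. No TGACGTCA or CArG box match was found in the 6 windows, and a match describes letters only.

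*Adra1d* had the highest level of the 8 genes. Per kilobase of exonic sequence, which is the scale on which genes are compared here, its level was 304 normalized counts per kb over the 10 aortae, with an SD of 112. *Adrb3* followed at 86.8 ± 70.6 normalized counts per kb (SD, n = 10), then *Adra2a* at 35.7 ± 19.7, *Adra1b* at 22.4 ± 5.01, *Adra1a* at 19.5 ± 6.71, *Adra2c* at 15.5 ± 3.71, *Adrb1* at 5.91 ± 2.50 and *Adra2b* at 1.63 ± 1.597. Within each aorta, *Adra1d* exceeded *Adrb3* in 10 of 10 and *Adra2c* exceeded *Adrb1* in 10 of 10. The neighbours between them were less separate: *Adrb3* exceeded *Adra2a* in 9 of 10 aortae, *Adra2a* exceeded *Adra1b* in 8, *Adra1b* exceeded *Adra1a* in 7, *Adra1a* exceeded *Adra2c* in 7, and *Adrb1* exceeded *Adra2b* in 8. The ranges of all 7 neighbouring pairs overlapped over the 10 aortae. The length used matters for *Adra1a*, whose 6 annotated transcripts cover 8728 exonic bases while the longest has 4282, and with the longest transcript its level was 39.8 normalized counts per kb, above *Adra2a* and *Adra1b*.

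**Figure D2:**
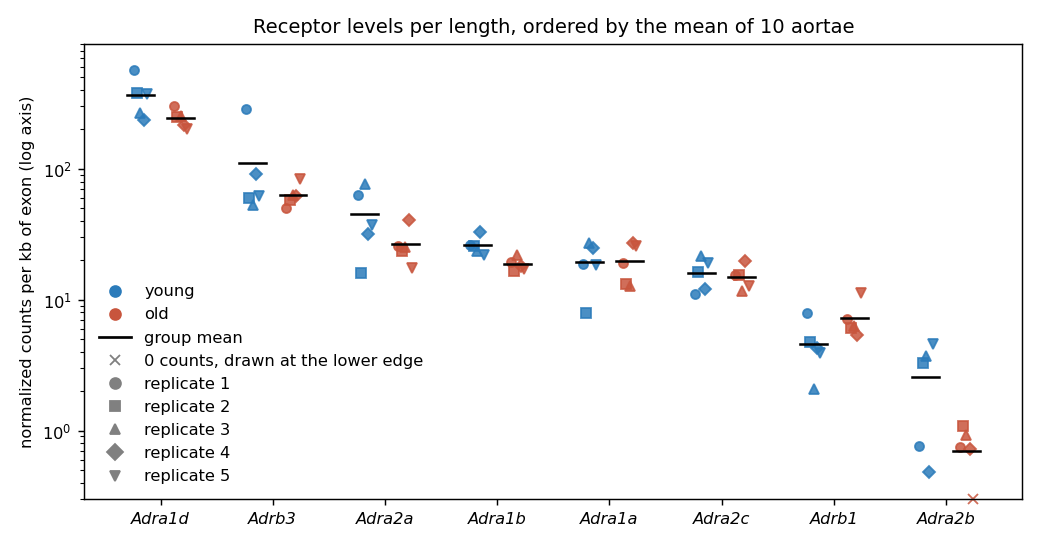
Level of each receptor gene per kb of exonic length on a log axis, with 1 point per aorta (young in blue, old in red, shapes as replicate numbers) and black lines for group means. A cross marks the old aorta with 0 *Adra2b* counts. *Adra1d* lies highest in all 10 aortae and *Adrb1* and *Adra2b* lowest by their means.

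Among the alpha-1 receptors, *Adra1d* made up 87.8% ± 5.42 of the summed level per kb at the young age and 86.2% ± 3.40 at the old age (SD, n = 5 each). *Adra1a* accounted for 5.31% ± 3.09 and 7.16% ± 3.08, and *Adra1b* for 6.91% ± 2.69 and 6.65% ± 0.819. The balance within the class thus differed between ages by less than the spread between mice. The 3 alpha-1 genes together held 70.8% ± 7.33 of the summed level of the 8 receptors in young and 71.2% ± 4.67 in old aortae, the 3 alpha-2 genes held 11.5% ± 5.84 and 10.7% ± 2.85, and *Adrb3* held 16.9% ± 7.90 and 16.2% ± 4.09. *Adrb1* differed from this pattern, with 0.778% ± 0.217 in young and 1.85% ± 0.674 in old aortae. Its share ranged from 0.436% to 0.991% in young and from 1.39% to 3.04% in old aortae, without overlap, and depends on the levels of the other 7 genes as well as on its own.

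*Adra1d* lies on chr2:131545850-131562283 on the minus strand (GRCm38, GENCODE M21, 1899 exonic bases). Across mice it had normalized counts of 1087, 718.5, 504.5, 445.2 and 702.9 in young replicates 1 to 5 and 569.6, 476.2, 480.0, 411.7 and 380.1 in old replicates 1 to 5. Young replicate 1 was highest and 2 old aortae lay below every young aorta, but the groups overlapped. Means were 692 ± 251 for young and 464 ± 73.0 for old aortae (SD, n = 5 each). The log2 fold change was -0.57 ± 0.22 (SE) with a 95% interval from -1.06 to -0.07 and an adjusted p of 0.133 by edgeR's quasi-likelihood test, and an adjusted p of 0.0394 by DESeq2. Without young replicate 1 the log2 fold change was -0.35, with an adjusted p of 0.174 by edgeR. A gene on the opposite strand, Gm14285, overlaps 7.74% of the exonic sequence and had 207 counts in all libraries beside 5770 for *Adra1d*.

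The genes most like *Adra1d* across the 10 aortae, once group means were removed, were *Cabin1* (Pearson r = 0.957), *Smad9* (0.911) and *Lmod1* (0.909), the last a marker of smooth muscle, out of 11053 genes with a mean of at least 100 normalized counts. These correlations describe 10 libraries that share young replicate 1 as an extreme, and none of the 3 genes was called between ages. The sum of the 8 smooth muscle markers did not share that extreme. It was 800300 normalized counts in young replicate 1, where *Adra1d* was highest, and 853700 to 950000 in the other young aortae.

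*Adra1b* lies on chr11:43774606-43901210 on the minus strand, with 3382 exonic bases. Its normalized counts were 88.9, 86.5, 79.8, 111.1 and 74.8 in young replicates 1 to 5 and 66.0, 55.6, 74.6, 60.7 and 58.3 in old replicates 1 to 5. All 5 old aortae lay below all 5 young ones, by a margin of 74.6 against 74.8 at the closest pair. When counts were divided by library totals alone (CPM) the groups overlapped, with the lowest young aorta at 3.35 and the highest old aorta at 3.50.

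The mean of *Adra1b* was 88.2 ± 13.9 in the young group and 63.0 ± 7.49 in the old group (SD, n = 5 each). The spread of this receptor, 15.8% of the mean in young and 11.9% in old aortae, was the smallest of the 8 genes in both groups. The log2 fold change was -0.48 ± 0.15 (SE), with a 95% interval from -0.80 to -0.15 and an adjusted p of 0.0589 by edgeR's quasi-likelihood test. The adjusted p was 0.0333 by DESeq2, 0.0585 by limma-voom and 0.0471 by edgeR without old replicate 3, which holds the highest old value. Over 18 alternatives it ranged from 0.0333 to 0.160 and the log2 fold change from -0.55 to -0.38.

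*Adra1a* lies on chr14:66635251-66771168 on the plus strand. Its normalized counts were 164.6, 69.4, 237.3, 216.3 and 159.8 in young replicates 1 to 5 and 165.9, 115.5, 111.8, 237.2 and 225.6 in old replicates 1 to 5. The groups covered nearly the same range, and young replicate 2 was lowest. The means were 169.5 ± 65.0 and 171.2 ± 59.1 (SD, n = 5 each), and the log2 fold change was 0.02 ± 0.32 (SE) with a 95% interval from -0.68 to 0.72 (adjusted p = 0.977 by edgeR). The sign turned in 4 of 10 fits that left out 1 mouse, so no direction can be given.

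*Adra2a*, the main presynaptic alpha-2 receptor, lies on chr19:54044151-54048982 on the plus strand in a single exon, and was the highest of its class. Across mice it had normalized counts of 305.7, 77.5, 367.9, 153.5 and 179.3 in young replicates 1 to 5 and 124.9, 114.4, 123.0, 195.7 and 84.6 in old replicates 1 to 5. Young aortae held both the lowest and the highest of all 10 values and so enclosed every old one. The log2 fold change was -0.74 ± 0.38 (SE), with a 95% interval from -1.596 to 0.11 (adjusted p = 0.249 by edgeR). It was -0.47 without young replicate 3, the highest aorta, and -0.96 without young replicate 2, the lowest. Which cells held the *Adra2a* RNA was not tested.

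*Adra2c*, a second receptor found on nerve endings, lies on chr5:35278319-35281763 on the plus strand. Across mice it had normalized counts of 37.8, 56.4, 74.8, 41.5 and 65.6 in young replicates 1 to 5 and 53.0, 53.4, 40.1, 67.5 and 43.7 in old replicates 1 to 5. The groups overlapped throughout. The log2 fold change was -0.09 ± 0.22 (SE), with a 95% interval from -0.57 to 0.38 (adjusted p = 0.836 by edgeR), and turned to 0.04 without young replicate 3. Which cells held the *Adra2c* RNA was not tested either.

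*Adra2b*, an alpha-2 receptor of vascular smooth muscle, lies on chr2:127363208-127367221 on the plus strand and was barely detected. It had 3, 13, 15, 2 and 18 counts in young replicates 1 to 5 and 3, 4, 4, 3 and 0 counts in old replicates 1 to 5, which sum to 51 and 14. The count of 0 allows up to 3 counts, by counting error alone. Young replicates 2, 3 and 5 lay above all old aortae, while young replicates 1 and 4 lay among them. The normalized means were 10.3 ± 7.38 and 2.80 ± 1.67 (SD, n = 5 each), a ratio of 0.272, and the exact two-sided permutation test of the difference gave p = 0.103, where the smallest p that 252 assignments allow is 0.0079. Left out of the test singly, young replicate 4 gave a ratio of 0.226 (p = 0.0238, exact permutation test) and young replicate 1 a ratio of 0.231 (p = 0.0397, exact permutation test), both of them low young values. Without young replicate 5, the highest, the ratio was 0.339 (p = 0.151, exact permutation test), and the other 7 omissions gave p from 0.111 to 0.151 by the same exact test. DESeq2, which tested this gene, gave an adjusted p of 0.0728.

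*Adrb1* lies on chr19:56722199-56733113 on the plus strand and had 201 counts in all libraries. Its normalized counts were 26.6, 16.1, 6.98, 14.5 and 13.3 in young replicates 1 to 5 and 24.0, 20.7, 21.4, 18.3 and 37.9 in old replicates 1 to 5. All old aortae exceeded 4 of the 5 young ones, and young replicate 1 was second highest of the 10. The log2 fold change was 0.67 ± 0.32 (SE), with a 95% interval from -0.03 to 1.37 (adjusted p = 0.210 by edgeR). It was 0.94 without young replicate 1 (adjusted p = 0.0587 by edgeR) and 0.46 without old replicate 5 (adjusted p = 0.444 by edgeR). The direction held in all 18 alternatives, without a call.

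Since *Adrb1* is the main receptor of heart muscle, its level was set against the summed cardiomyocyte markers in the 10 aortae. After removal of group means, Pearson's r was -0.25 (p = 0.493, permutation test) and Spearman's rho was -0.03 (p = 0.947, permutation test), and r was 0.51 without the 2 aortae farthest from the median of the marker sum. A relation with this sum was not detected over these 10 aortae. *Myh6*, a heart muscle myosin, was at 161 normalized counts in young replicate 2 and at 77.9 in young replicate 5, where *Adrb1* was at 16.1 and 13.3, and at 1.09 to 6.76 in the other 8 aortae. The most abundant marker in the sum was *Ryr2*. The sum was highest in old replicate 3, at 4390, beside 3696 and 2898 in young replicates 2 and 5. The sum thus did not follow *Myh6*, and the test cannot decide whether *Adrb1* follows heart muscle RNA.

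*Adrb3* lies on chr8:27225776-27250616 on the minus strand, with 3376 exonic bases. Its normalized counts were 959.9, 203.3, 179.5, 309.0 and 208.0 in young replicates 1 to 5 and 168.9, 196.1, 211.6, 210.2 and 282.9 in old replicates 1 to 5. Young replicate 1 lay far above the rest, and the other 9 aortae overlapped. The means were 372 ± 332 and 214 ± 42.2 (SD, n = 5 each). The log2 fold change was -0.79 ± 0.48 (SE), with a 95% interval from -1.86 to 0.29 (adjusted p = 0.339 by edgeR), and was -0.07 without young replicate 1 (adjusted p = 0.839 by edgeR). Gm45470 on the opposite strand overlaps 24.9% of the exonic sequence, with 59 counts in all libraries beside 2929 for *Adrb3*.

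**Figure D3:**
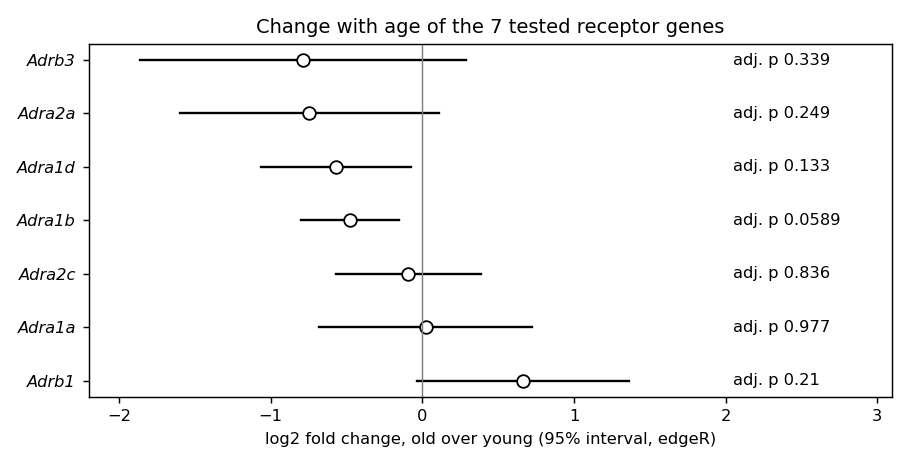
Log2 fold change, old over young, of the 7 tested receptor genes with the 95% interval of edgeR's fit and the adjusted p at the right. The intervals of *Adra1b* and *Adra1d* end below 0, those of the other 5 genes include 0, and no adjusted p is below 0.05.

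Adipocyte markers moved with *Adrb3* between mice. The sum of 8 markers, among them *Adipoq*, *Plin1* and the most abundant, *Pnpla2*, was 21950, 7831, 8669, 12640 and 8446 normalized counts in young replicates 1 to 5 and 5914, 10300, 7898, 7088 and 6803 in old replicates 1 to 5. All 8 markers had a log2 fold change below 0, from -1.13 to -0.11, and 0 of 8 were called by edgeR, with 5 at an unadjusted p below 0.05, 1 called by DESeq2 and 0 by limma-voom. Over all tested genes, 11.5% were called by edgeR and 26.7% had an unadjusted p below 0.05. After removal of group means, *Adrb3* and the marker sum correlated over the 10 aortae, with Pearson's r of 0.85 (p = 0.00535, adjusted over 2 relations 0.0107, permutation test) and Spearman's rho of 0.77 (p = 0.0131, adjusted 0.0263, permutation test). Without the 2 aortae farthest from the median marker sum, young replicates 1 and 4, r was -0.02, so that the relation rests on those aortae. *Adrb3* was 4.37% of the marker sum in young replicate 1 and 1.91% to 4.16% in the other 9, and the part of adipocyte RNA in the age difference was not tested.

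**Figure D4:**
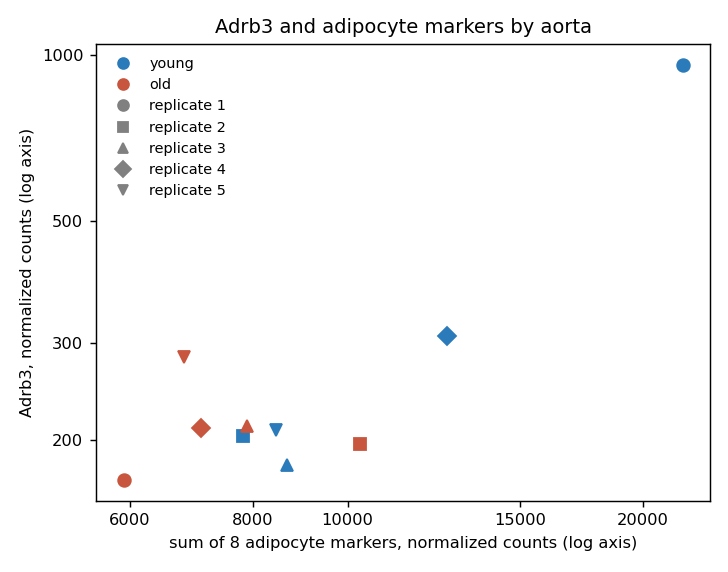
*Adrb3* against the sum of 8 adipocyte markers in each aorta, both in normalized counts on log axes (young in blue, old in red, shapes as replicate numbers). Young replicate 1 lies at the upper right, young replicate 4 between it and the other 8 aortae, and over those 8 Pearson r was -0.02 once group means were removed.

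The genes most like *Adrb3* over the 10 aortae were *Ndufa10* (Pearson r = 0.973), a subunit of respiratory complex I, *Agpat2* (0.971), an enzyme of fat synthesis, and *Hadh* (0.957), an enzyme of fatty acid oxidation. As for *Adra1d*, the values describe 10 libraries of which young replicate 1 is an extreme. *Ucp1*, the defining gene of brown fat, was at 679.8 normalized counts in young replicate 1, but ranged from 28.2 to 458 in the other 9 aortae, and it was not called between ages (log2 fold change 0.06, adjusted p = 0.975 by edgeR).

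The libraries held between 19640401 and 22886153 counts on genes. Checked against the labelled tissue, the sum of 8 smooth muscle markers was 740000 to 950000 normalized counts in each library, and 1 of the 8 was called (*Smtn*, higher). Beside the marker counts given here, 11.5% of all tested genes were called by edgeR and 26.7% had an unadjusted p below 0.05. Young replicate 1 stood apart by adipocyte markers, and young replicate 2, which had the lowest *Adra1a* and *Adra2a*, by striated muscle genes such as *Myh4* (286 against 0 to 5.12). The sums of endothelial markers ranged from 19230 to 32900 in young and from 9879 to 22850 in old aortae, with 7 of 7 fold changes below 0 and 0 called by edgeR (5 at an unadjusted p below 0.05, 4 called by DESeq2 and 4 by limma-voom), and those of macrophage markers from 6636 to 8936 and from 8804 to 18140, with 3 of 6 called higher (*Cd68*, *Adgre1* and *C1qa*). Called genes were 3 of 6 in the fibroblast list (*Lum* higher, *Col1a1* and *Pi16* lower), 1 of 5 in the brown adipocyte list (*Dio2*, lower), 2 of 4 in the cardiomyocyte list (*Ryr2* and *Tnnt2*, higher), 2 of 4 in the sympathetic neuron list (*Slc6a2* lower, *Tubb3* higher), 1 of 1 in the T cell list (*Cd3g*, higher), and 0 of 4 each in the skeletal muscle and B cell lists, where edgeR gave 0 and 1 at an unadjusted p below 0.05 and the other tools called 0. In the cardiomyocyte list the other 2 tested genes, *Tnni3* and *Actn2*, had log2 fold changes of -0.74 and -1.42 (adjusted p = 0.0511 and 0.0850 by edgeR), and DESeq2 called 5 genes of that list. The part of these markers in the receptor values was not tested. Without both young replicates 1 and 2, 0 receptor genes were called and *Adra1d* was at -0.24, *Adra1b* at -0.48, *Adrb1* at 1.07 and *Adrb3* at -0.11 on the log2 scale.

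Around the receptors, 94 genes of catecholamine handling and receptor signalling were examined in 10 lists, of which 80 were tested. Of these, 18 were called, 14 higher and 4 lower in old aortae, which is 22.5% beside 11.5% of all tested genes. The lists were chosen with earlier results of these data known and no set test was run, so these shares are a description only. The median log2 fold change of the 80 genes was 0.02, beside 0.0034 over all tested genes.

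Among genes that remove the ligand by transport or breakdown, 3 of 7 tested were called, beside 11.5% of all tested genes. *Slc22a3*, an organic cation transporter that takes up catecholamines outside nerves, had 213.7, 126.8, 165.5, 169.0 and 151.6 normalized counts in young replicates 1 to 5 and 459.7, 696.3, 556.4, 562.1 and 698.1 in old replicates 1 to 5. It rose without overlap, and the log2 fold change was 1.85 ± 0.15 (SE) and an adjusted p of 1.22e-05 by edgeR. *Slc6a2*, the noradrenaline transporter of nerve endings, had 90.0, 78.5, 102.7, 101.4 and 118.9 normalized counts in young replicates 1 to 5 and 67.95, 15.3, 43.8, 62.7 and 23.3 in old replicates 1 to 5. It fell without overlap, and the log2 fold change was -1.19 ± 0.32 (SE) and an adjusted p of 0.0324 by edgeR, which ranged from 0.00262 to 0.0718 over 18 alternatives and lost the call in 7 of them, among them the fits without young replicates 3, 4 or 5 or old replicates 3 or 5. In young and old aortae *Slc6a2* averaged 98.3 and 42.6 normalized counts, beside 2.45 and 0.436 for *Th* and 2.03 and 0.404 for *Dbh*. All 3 are in the sympathetic neuron list, and which cells held the *Slc6a2* RNA was not tested. *Maob*, which breaks down amines, rose by 0.24 ± 0.07 (SE) on the log2 scale (adjusted p = 0.0339 by edgeR, 0.0127 to 0.0955 over 18 alternatives), and lost the call without young replicates 2, 4 or 5 or old replicates 1, 3 or 4. The other 4 tested genes of the transport and breakdown list were not called.

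Of the genes that make catecholamines, *Th* and *Dbh* were near 0. *Th* had 12.3 normalized counts in young replicate 1, 2.18 in old replicate 2 and 0 in the other 8 aortae, and *Dbh* had 8.18 in young replicate 1 and at most 1.09 in the others. *Ddc*, at 10.2 ± 4.05 and 9.43 ± 2.57 (SD, n = 5 each), was not called (adjusted p = 0.889 by edgeR). *Pnmt*, the enzyme that turns noradrenaline into adrenaline, was below the filter but did not overlap between ages: it had 3.07, 6.04, 2.99, 3.86 and 5.12 normalized counts in young replicates 1 to 5 and 10.99, 15.3, 9.32, 11.6 and 15.6 in old replicates 1 to 5. These values rest on 21 counts in young and 63 in old aortae, and the exact two-sided permutation test gave p = 0.0079, the smallest that it can give. DESeq2, which tested it, gave an adjusted p of 0.0111.

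Downstream of the receptors, 2 of 12 G alpha subunits were called, beside 11.5% of all tested genes. *Gnao1* rose by 0.37 ± 0.08 (SE) on the log2 scale (adjusted p = 0.0091 by edgeR) and *Gnaq*, a subunit of the Gq family, had a log2 fold change of -0.23 ± 0.06 (SE, adjusted p = 0.0190 by edgeR). *Gnaq* averaged 2237 ± 71.9 normalized counts in the young group and 1900.0 ± 127 in the old group (SD, n = 5 each), without overlap. *Gna11*, of the same family, averaged 3364 and 3425 and was not called (log2 fold change 0.03, adjusted p = 0.747 by edgeR). Neither was *Gna14*, also of that family (-0.02, adjusted p = 0.972 by edgeR). Of 9 adenylyl cyclases, 1 was called: *Adcy1*, a calcium-stimulated form, rose from 159 ± 17.7 to 348 ± 59.6 normalized counts, with a log2 fold change of 1.13 ± 0.13 (SE, adjusted p = 0.000137 by edgeR). Of 8 tested genes of protein kinase A and its inhibitors, 2 were called, the regulatory subunit *Prkar1b* (log2 fold change 1.36 ± 0.13, adjusted p = 6.77e-05 by edgeR) and the inhibitor *Pkig* (0.28 ± 0.07, adjusted p = 0.0254 by edgeR). The call of *Pkig* was lost without young replicates 2 or 4 or old replicates 3 or 5, with an adjusted p of up to 0.0728 by edgeR. *Prkar1b* rose from 75.6 ± 10.96 to 193 ± 26.2 normalized counts without overlap.

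Phosphodiesterases, which break down cyclic AMP, held the most called genes of the 10 lists, with 7 of 13 tested. Over all tested genes 11.5% were called, and this list was also the longest, with 16 genes. *Pde8b* was at 4.99 to 9.22 normalized counts in young and 23.3 to 37.97 in old aortae, and its log2 fold change was 2.13 ± 0.25 (SE, adjusted p = 0.000179 by edgeR). *Pde4a* rose by 0.57 ± 0.09 and *Pde8a* by 0.54 ± 0.10 (SE) on the log2 scale, and the remaining higher genes, named after their values were seen, were *Pde1b* and *Pde1c*. *Pde3b*, the form through which insulin lowers cyclic AMP in fat cells, fell from 629.8 ± 82.3 to 423 ± 67.7 normalized counts (log2 fold change -0.57 ± 0.12, adjusted p = 0.0073 by edgeR), and *Pde4d* fell from 469 ± 32.3 to 339 ± 39.1 (-0.46 ± 0.09, adjusted p = 0.0055 by edgeR). All 8 adipocyte markers also had fold changes below 0, none of them called by edgeR, and their part in the *Pde3b* value was not tested. The most abundant form, *Pde3a*, averaged 8617 (young) and 8242 (old) normalized counts and was not called.

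**Figure D5:**
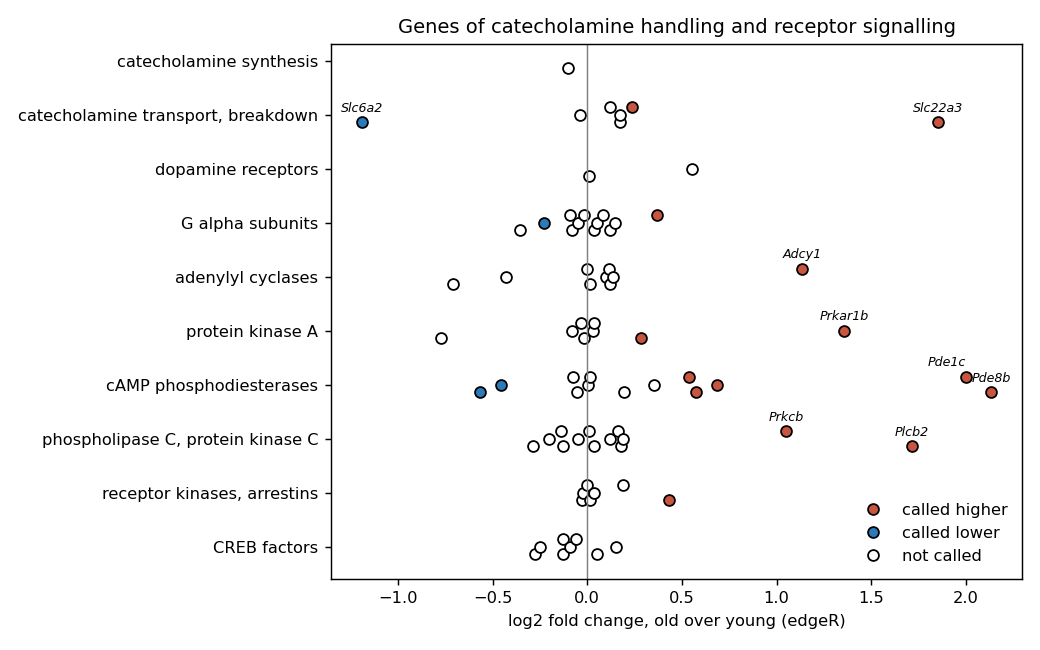
Log2 fold change, old over young, of the 80 tested genes in 10 lists of catecholamine handling and receptor signalling, with called genes in red (higher) and blue (lower) and small vertical offsets for legibility. *Slc6a2* lies farthest to the left and *Pde8b* farthest to the right.

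In the phospholipase C and protein kinase C list, 2 of 13 genes were called, beside 11.5% of all tested genes. They were *Prkcb* (log2 fold change 1.05 ± 0.18, adjusted p = 0.0027 by edgeR) and *Plcb2* (1.72 ± 0.45, adjusted p = 0.0250 by edgeR). The call of *Plcb2* was lost with limma-voom (adjusted p = 0.0529) and without young replicates 2, 4 or 5 or old replicates 2 or 3, with an adjusted p of up to 0.0676 by edgeR. Both are known from blood cells, and beside them 3 of 6 macrophage markers were called higher, and the part of those cells in these values was not tested. Of the receptor kinases and arrestins that turn receptors off, 1 of 7 was called, *Arrb2* (0.43 ± 0.10, adjusted p = 0.0133 by edgeR). *Grk2*, the kinase best known for beta receptors, was at 2094 ± 91.5 normalized counts at the young age and 2135 ± 132 at the old age (SD, n = 5 each), and *Grk3*, *Grk4*, *Grk5*, *Grk6* and *Arrb1* had log2 fold changes between -0.03 and 0.19. None of 8 CREB factors and coactivators was called by edgeR, DESeq2 or limma-voom (2 at an unadjusted p below 0.05 by edgeR), and neither were the dopamine receptors *Drd1* (log2 fold change 0.55, adjusted p = 0.353) and *Drd3* (0.01, adjusted p = 0.993), while *Drd2* and *Drd5* had 0 counts and *Drd4* had 1. Exons of *Slc22a3*, *Prkar1b* and *Pde8b* are overlapped by other annotated genes over 9.31%, 8.95% and 7.60% of their length.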

How the data were processed

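RNA of 10 aortae, 5 young and 5 old, was sequenced after poly(A) selection with a stranded kit. Per the labels and methods, the authors filtered the reads with fastp 0.20.0, aligned them to GRCm38 with STAR 2.7.0f and counted them with featureCounts (Subread 1.6.4). The deposited values are these raw counts, without normalization. For their own comparison the authors normalized counts with DESeq2. The strand setting and the treatment of reads with several alignments are not given in the sources used here, so overlapping antisense genes cannot be told apart.

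Levels are counts divided by DESeq2 1.42.0 size factors, with SD over 5 mice. The ages were compared with edgeR 4.0.16 (quasi-likelihood F test, robust fit, TMM, filterByExpr defaults, no covariate) and Benjamini-Hochberg adjustment over 14614 genes, called at 0.05, after the code was tested on simulated counts. Exact permutation tests were two-sided. Correlations used log2 of the normalized count plus 1 with 100000 resamples. Alternatives were DESeq2, limma-voom (limma 3.58.1), other scalings and filters, a replicate block and the omission of each mouse, and, added after seeing the data, of young replicates 1 and 2 together. Members, lists and tests were chosen with earlier results of these data known. Named were all members, 3 called genes of smallest p per pathway list and direction, all genes of the synthesis, dopamine receptor and receptor kinase lists, the most abundant markers where a result touches them, and the 3 genes most like each of the 2 highest receptors. Other genes, such as the remaining called markers, were named after their values were seen. Genes were placed with GENCODE M21, the release given here, where the authors used M22. Libraries of 1 group differed by at least 8.06 times the counting error (chi-square divided by degrees of freedom, over 20 pairs), so each counted as 1 replicate. The labels do not say more of how the mice relate, and p-values measure the spread between these mice.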

Additional observations from a re-analysis of the deposited data

Results flagged for a closer look

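A single aorta stood apart from the other 4 of its group, by Dixon's criterion at 95%, in 2 of 16 receptor groups and in 2 of 50 groups of the named pathway genes. Chance alone flags about 1 in 20 groups. *Adrb3* was at 959.9 normalized counts in young replicate 1, where the other young aortae ranged from 179.5 to 309.0, and the same library held the highest adipocyte marker sum (21950). *Adrb1* was at 37.92 normalized counts in old replicate 5, where the other old aortae ranged from 18.3 to 24.0. Its gap was 0.711 of the range of that group, barely above the criterion of 0.71, and the value rests on 39 counts. *Drd3* was at 15.09 normalized counts in young replicate 2, where the others ranged from 9.20 to 10.6. *Pde4d* was at 270.8 normalized counts in old replicate 1, the lowest of its group, where the others ranged from 348.7 to 369.2, and its call held without that aorta.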

How the results depend on the processing

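The count of 0 called receptor genes became 2 with DESeq2 (*Adra1b* and *Adra1d*) and 0 to 1 when 1 mouse was left out (1 without old replicate 3, *Adra1b*). It stayed at 0 under limma-voom, the other scalings and filters and without young replicates 1 and 2. The ratio of *Adra2b* ranged from 0.226 to 0.339 with 1 mouse left out. With the longest transcript as length, *Adra1a* was at 39.8 normalized counts per kb. On that length *Adra1d* made up 83.3% of the alpha-1 sum in young and 80.3% in old aortae, and *Adra1a* 10.1% and 13.4%. The count of 18 called pathway genes ranged from 14 to 21 with 1 mouse left out and from 16 to 19 otherwise. Of 16 named pathway genes that were called, 11 kept the call in every alternative run. *Gnaq* lost it without young replicates 1 and 2 (adjusted p = 0.0528 by edgeR).

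Log2 fold changes that changed sign lay close to 0. With 1 mouse left out they ranged from -0.18 to 0.17 for *Adra1a*, from -0.21 to 0.0431 for *Adra2c*, from -0.30 to 0.0292 for *Ddc*, from -0.13 to 0.20 for *Drd3*, from -0.0739 to 0.0513 for *Grk3*, from -0.0799 to 0.0621 for *Grk5*, from -0.0481 to 0.00716 for *Grk6* and from -0.0382 to 0.0656 for *Arrb1*. Without young replicates 1 and 2, *Adra1a* was at -0.25 and *Grk6* at 0.00606. *Drd3* was at -0.00175 with DESeq2, -0.10 with limma-voom and -0.000263 with DESeq2 size factors in edgeR. With upper-quartile factors *Grk5* was at 0.0247 and *Grk6* at 0.00406, and with library size alone they were at 0.0211 and 0.00161. The cause was not tested.

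Upper-quartile factors and library size alone moved the split of all calls from 947 higher and 729 lower to 1076 and 616 and to 1034 and 615, with the median of all genes at 0.03 on the log2 scale. The labels state no pairing of mice by replicate number. Same-numbered young and old aortae correlated from -0.29 to 0.13 in their deviations from the group means, and 2 of 5 correlated best with their own number. So few pairs cannot decide whether same-numbered mice share anything. A fit with the replicate number as a block called 1261 genes of all, 0 receptor genes and 16 pathway genes, and gave *Adra1d* -0.52 (adjusted p = 0.0595 by edgeR), *Adra1b* -0.47 (adjusted p = 0.123 by edgeR) and *Drd3* -0.0383. Under the block *Gnaq* (adjusted p = 0.0695 by edgeR) and *Maob* (adjusted p = 0.0548 by edgeR) lost their calls.

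At 65 counts for *Adra2b* and 201 for *Adrb1* over 10 aortae, counting error adds to the spread between mice. The main edgeR fit did not call the difference seen for *Adrb1* and did not test *Adra2b*.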
